A study of Mus musculus with 8 samples.

Results

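The chemokines and their receptors were read as one gene module across all libraries of an injury study of mouse dorsal root ganglia. A gene was taken when its symbol was Ccl, Cxcl, Ccr or Cxcr with a number and at most one further letter, or was Cx3cl1, Cx3cr1, Xcl1 or one of the atypical receptors Ackr1 to Ackr4. The rule found 58 of the 21878 genes in the deposited table, 37 ligands and 21 receptors. RNA sequencing covered lumbar 4 and 5 ganglia of C57BL/6 mice, collected 3 days after a sham operation or after the sciatic nerve was cut (SNI in the sample names). Mice called WT carried floxed Myh9 and Myh10, which encode heavy chains of the non-muscle myosins IIA and IIB, without Cre. Mice called dKO carried the same floxed alleles together with Advillin-Cre, which is active in sensory neurons, so that every group shared the floxed alleles, and the glia, vessels and immune cells of dKO ganglia are not the cells the Cre is aimed at. The 4 groups of genotype and operation held 2 libraries each. Nothing in the labels ties the 2 to different animals, and p-values then reflect only how far libraries spread, possibly for technical reasons. No age is given.

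Chemokines are small secreted proteins that guide leukocytes along concentration gradients by binding receptors coupled to inhibitory G proteins. CC ligands such as Ccl2 chiefly draw monocytes and their descendants, CXC ligands of the Cxcl1 type draw neutrophils, and the atypical receptors bind chemokines without G protein signaling and so clear or carry them. In dorsal root ganglia they are known for the arrival and activation of macrophages around the cell bodies of injured sensory neurons.

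The values were FPKM, which scales fragments to transcript length and to the size of the library, and their totals were 278310 to 339920 per library. Read totals are unknown, so the counting error of a low value is unknown too. Markers of sensory neurons were present in every library (summed level of 8 markers 1012 to 4436 FPKM). Myh9 measured 27.2 to 31.6 FPKM in the 4 WT libraries and, in dKO, 10.9 and 12.1 FPKM after sham surgery and 24.6 and 24.4 FPKM after axotomy, and Myh10 measured 18.1 and 23.5 FPKM in WT and 12.2 and 14.4 FPKM in dKO after sham surgery, and 13.8 and 10.4 FPKM in WT and 5.31 and 4.12 FPKM in dKO after axotomy, each dKO group lying below the WT group with the same operation. Y-linked genes measured 2.10 to 17.8 FPKM in WT sham and dKO SNI but at most 0.0109 FPKM in WT SNI and dKO sham. The sex of the mice and the named factor therefore cannot be told apart in any of the comparisons, the interaction included. The library WT sham 2 also held skeletal muscle transcripts (Ckm 138 FPKM, at most 3.17 FPKM elsewhere).

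Most of the module was weakly expressed. In 16 members every library reached 1 FPKM, in 12 members 2 to 7 libraries did, and 30 members stayed below 1 FPKM in all 8 libraries. Below that line were 17 of the 37 ligands and 13 of the 21 receptors. The 10 ligands at 1 FPKM or more throughout were Ccl2, Ccl6, Ccl11, Ccl12, Ccl21a, Ccl25, Ccl27a, Cxcl10, Cxcl12 and Cx3cl1, and the 6 receptors were Ccr2, Cxcr2, Cxcr4, Cx3cr1, Ackr1 and Ackr3. Ccl11 had the highest mean level of the ligands over the 8 libraries (16.3 FPKM) and Ackr1 that of the receptors (62.4 FPKM). FPKM is scaled to transcript length, so these levels can be set beside each other as far as the transcript models are right.

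**Figure D1:**
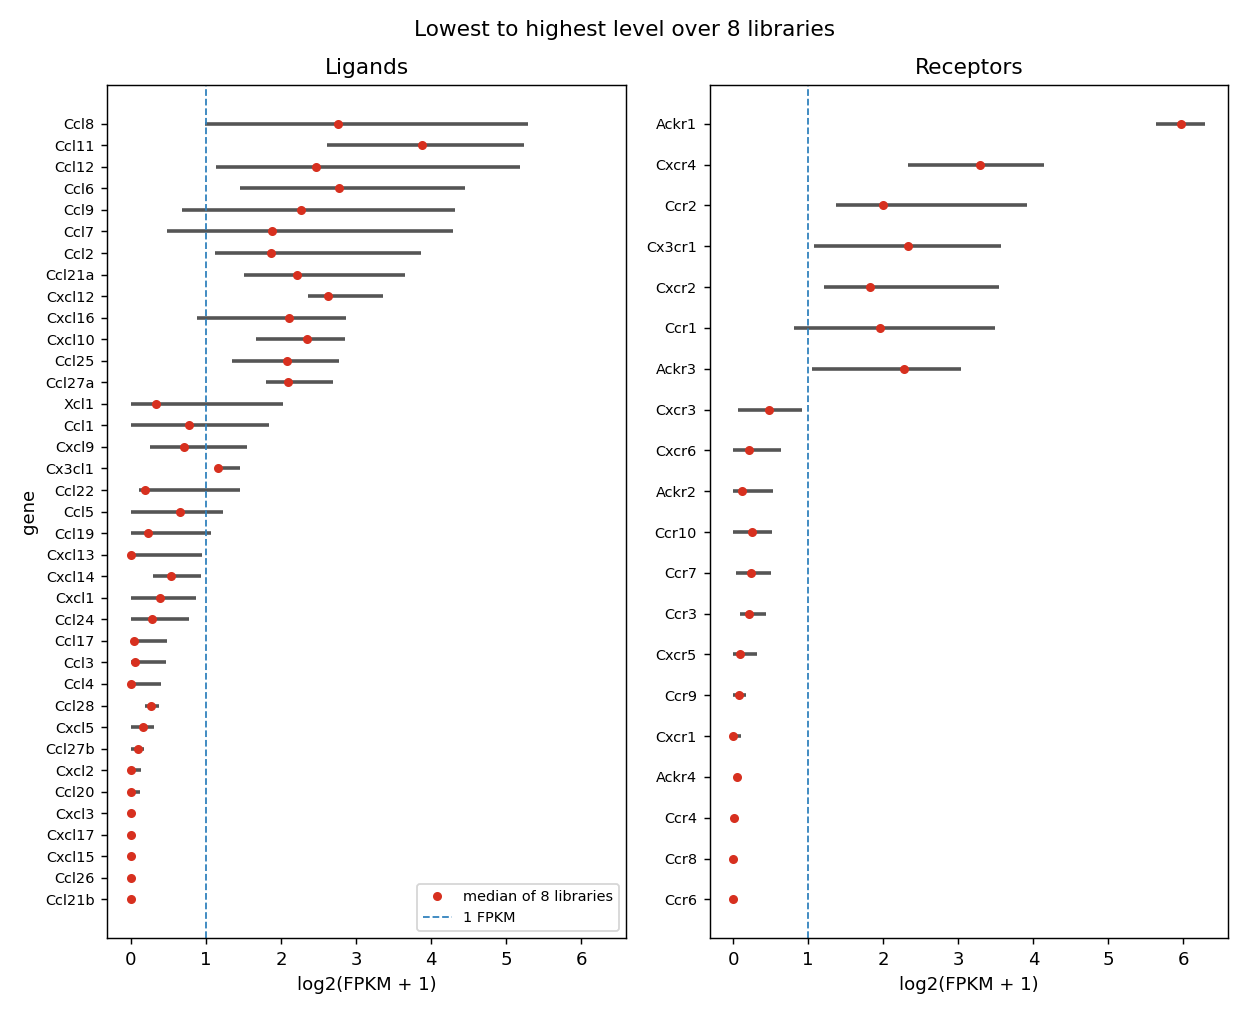
Horizontal lines run from the lowest to the highest log2(FPKM + 1) over 8 libraries for ligands (left) and receptors (right), red points are medians and the dashed line is 1 FPKM. Ackr1 lies far above every other receptor, and 17 ligands and 13 receptors end left of the dashed line.

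The members under 1 FPKM are given by role. All 5 neutrophil-attracting ligands of the module were there: Cxcl1 reached at most 0.824 FPKM, Cxcl5 0.238 FPKM and Cxcl2 0.0989 FPKM, and Cxcl3 and Cxcl15 were listed at 0 throughout. Ccl3 and Ccl4, macrophage inflammatory proteins, reached 0.380 and 0.325 FPKM. Among ligands of lymphocytes and dendritic cells, Cxcl13 (ligand of Cxcr5) reached 0.938 FPKM, Ccl17 (of Ccr4) 0.397, Ccl28 (of Ccr10) 0.299, Ccl27b 0.127 and Ccl20 (of Ccr6) 0.0830 FPKM, and Ccl21b was listed at 0. Ccl24, a ligand of the eosinophil receptor Ccr3, reached 0.708 FPKM and Cxcl14 reached 0.919 FPKM, whereas Ccl26 and Cxcl17 were listed at 0. Ccl21a and Ccl21b, and Ccl27a and Ccl27b, are near-identical copies whose reads the counting may split, so their separate levels are uncertain.

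Chemokine receptors of lymphocytes were also on that list. Cxcr3, Cxcr6, Ccr7 and Ccr4, found on T cells, reached at most 0.891, 0.563, 0.423 and 0.0465 FPKM, and Cxcr5, found on B cells, 0.251 FPKM. Ccr3 of eosinophils reached 0.349 FPKM, Ccr10 0.433 FPKM, Ccr9 0.128 FPKM and Cxcr1, the second neutrophil receptor, 0.0798 FPKM. The scavenging receptors Ackr2 and Ackr4 reached 0.442 and 0.0776 FPKM. Ccr6 and Ccr8 were listed at 0 in all libraries. Markers of T cells were as low: Cd3e, Cd3d, Cd3g, Cd4, Cd8a and Lat, the 6 listed, summed to 0.395 to 2.32 FPKM over the 8 libraries.

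After axotomy both ligands and receptors were higher, and the highest levels lay in dKO SNI. Summed over the 37 ligands, WT libraries measured 40.7 and 33.9 FPKM after sham surgery and 70.1 and 95.0 FPKM after axotomy, and dKO libraries 47.8 and 67.2 FPKM and then 152 and 238 FPKM. The receptors without Ackr1 summed in WT to 12.7 and 13.4 FPKM after sham surgery and 31.2 and 41.1 FPKM after axotomy, and in dKO to 16.9 and 23.7 FPKM and then 62.8 and 74.7 FPKM. For both sums each SNI library lay above each sham library, and each dKO SNI library above each WT SNI library. The atypical receptors, chiefly Ackr1, made up 85.6 and 86.5% of the sum of all receptors in WT sham and 52.8 and 50.4% in dKO SNI. In such bulk samples more cells of a type and more RNA per cell cannot be told apart.

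**Figure D2:**
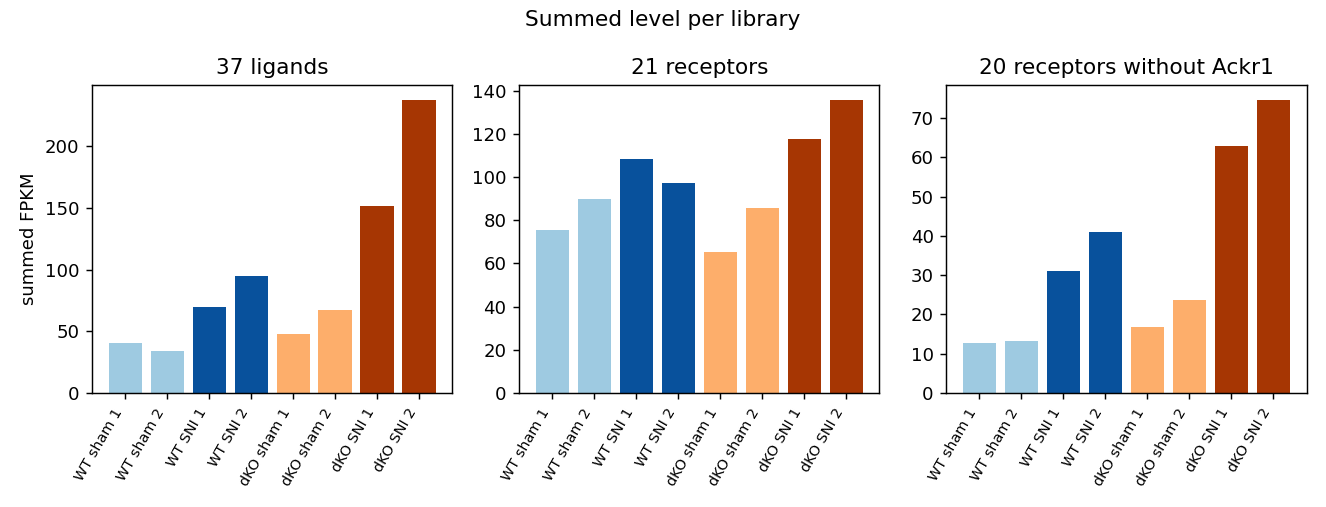
Bars show the summed FPKM of all ligands, of all receptors and of the receptors without Ackr1 in each of the 8 libraries (light blue WT sham, dark blue WT SNI, light orange dKO sham, dark orange dKO SNI). The ligand sum is lowest in WT sham 2 (33.9) and highest in dKO SNI 2 (238), and the receptor sum without Ackr1 spans 12.7 to 74.7.

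Changes are differences of log2(FPKM + 1), which makes the change of a low gene look smaller, and were tested with limma over the 12884 genes that reached 1 FPKM in 2 or more libraries. A gene was called at a Benjamini-Hochberg adjusted p under 0.05, and ± after a change is its standard error. The filter kept 28 members, 20 ligands and 8 receptors. Of these, 12 passed through some libraries alone, often those of the group where they were high, so counts over the 28 describe the members and support nothing further.

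The comparison of WT SNI with WT sham asked what axotomy does with both myosin genes intact. Higher in WT SNI were 15 of 28 tested members (9 ligands and 6 receptors) and 0 were lower, where 23.0% of all tested genes were called, 13.6% higher and 9.38% lower. The median change was 0.47 for the 20 ligands and 0.98 for the 8 receptors, against 0.07 for all tested genes. Every WT SNI library lay above every WT sham library for 16 of the 28, which was so for 39.8% of all tested genes. In dKO mice, where the question was what axotomy does with Cre in the sensory neurons, 21 of 28 members were higher (14 ligands and 7 receptors) and 0 lower, where 48.4% of tested genes were called, 23.8% higher and 24.6% lower. There the median change was 1.17 for ligands and 1.51 for receptors, against -0.00 for all tested genes, and every dKO SNI library lay above every dKO sham library for 21 members, as for 37.7% of tested genes. Among the 16 members at 1 FPKM or more in every library, 8 rose in WT and 11 in dKO.

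The WT counts depended on single libraries. Leaving out WT sham 2, in which muscle transcripts were found, 7 members were called and without WT SNI 2 also 7. Ccl9, Ccl11, Cxcl16, Ccr1, Cx3cr1 and Cxcr4 kept their calls whichever of the 8 libraries was left out, and 17 of the 21 dKO calls did. Of all calls in WT SNI, 59.3% were higher, and 49.9% after centring the libraries on their median or 45.9% after quantile normalization, which left 12 and 10 members called.

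Comparing dKO SNI with WT SNI asked whether injured ganglia of the 2 genotypes differed. Here 15 of 28 members were higher in dKO SNI (11 ligands and 4 receptors) and 0 were lower, where 24.1% of tested genes were called, 10.7% higher and 13.4% lower. The median change was 0.74 for ligands and 0.65 for receptors, against -0.03 for all tested genes, and every dKO SNI library lay above every WT SNI library for 20 members, as for 30.8% of tested genes. Without WT SNI 1, or without dKO SNI 2, 0 members passed (adjusted p of the 15 members 0.0692 to 0.304 and 0.0593 to 0.223), and 10 and 11 of all tested genes did. None of the 15 calls named for this comparison thus held without either library. Their changes stayed positive in both fits, at 0.33 to 1.68 and 0.58 to 1.57.

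**Figure D3:**
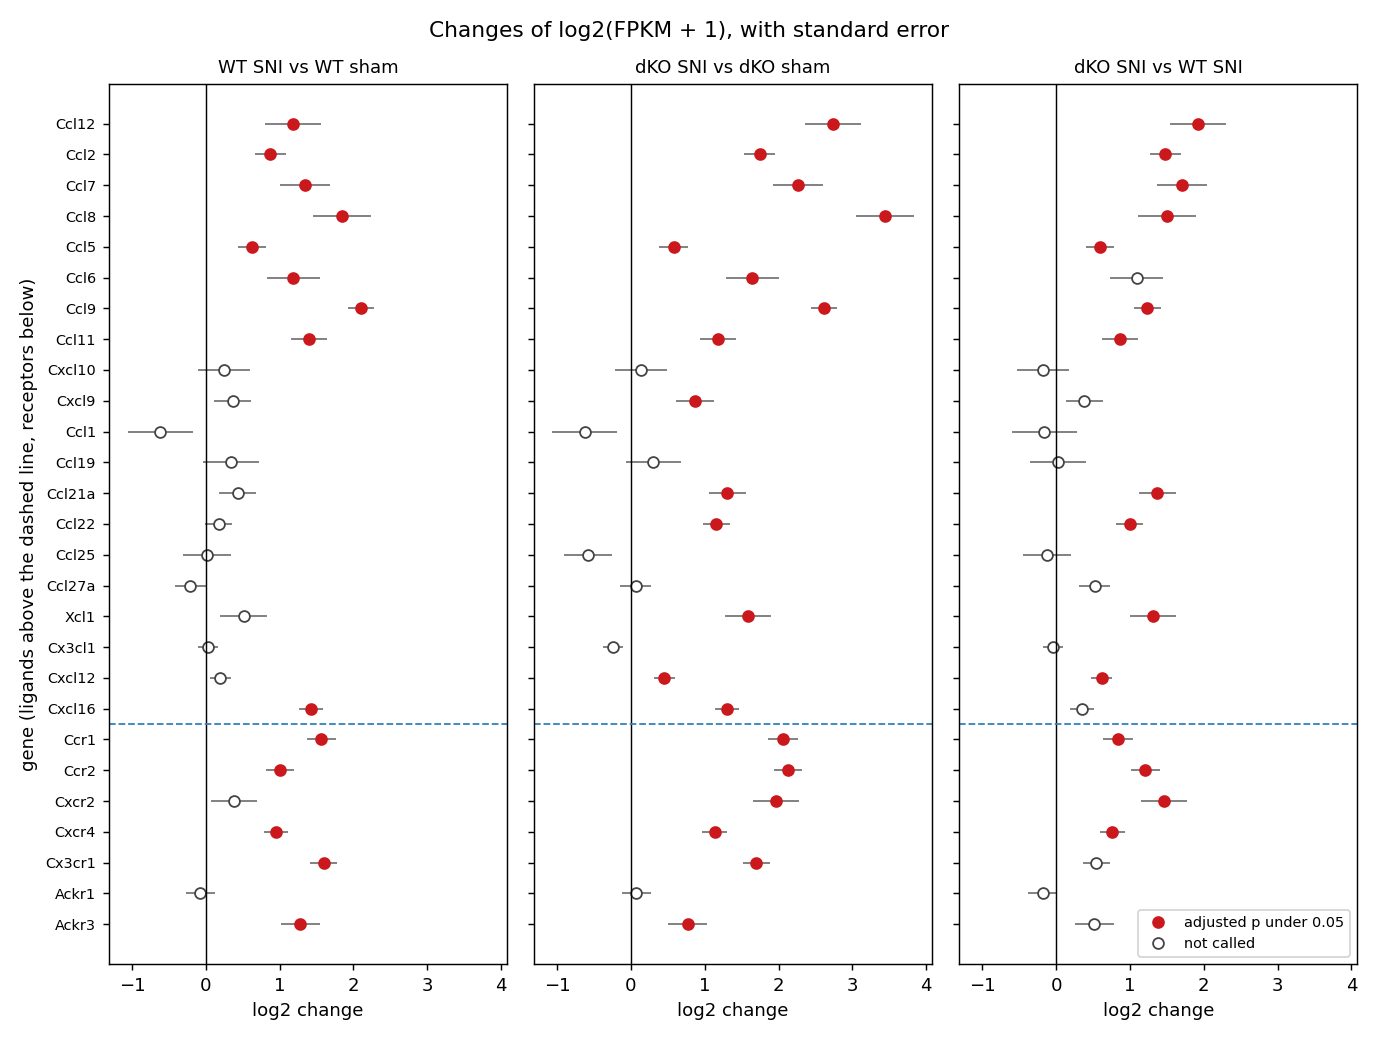
Points are changes of log2(FPKM + 1) for the tested members named in the text with standard errors as horizontal lines, in WT SNI against WT sham, dKO SNI against dKO sham and dKO SNI against WT SNI, filled red when the adjusted p was under 0.05. All filled points lie right of 0, and Ccl8 reaches 3.44 ± 0.39 in the middle panel.

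**Figure D4:**
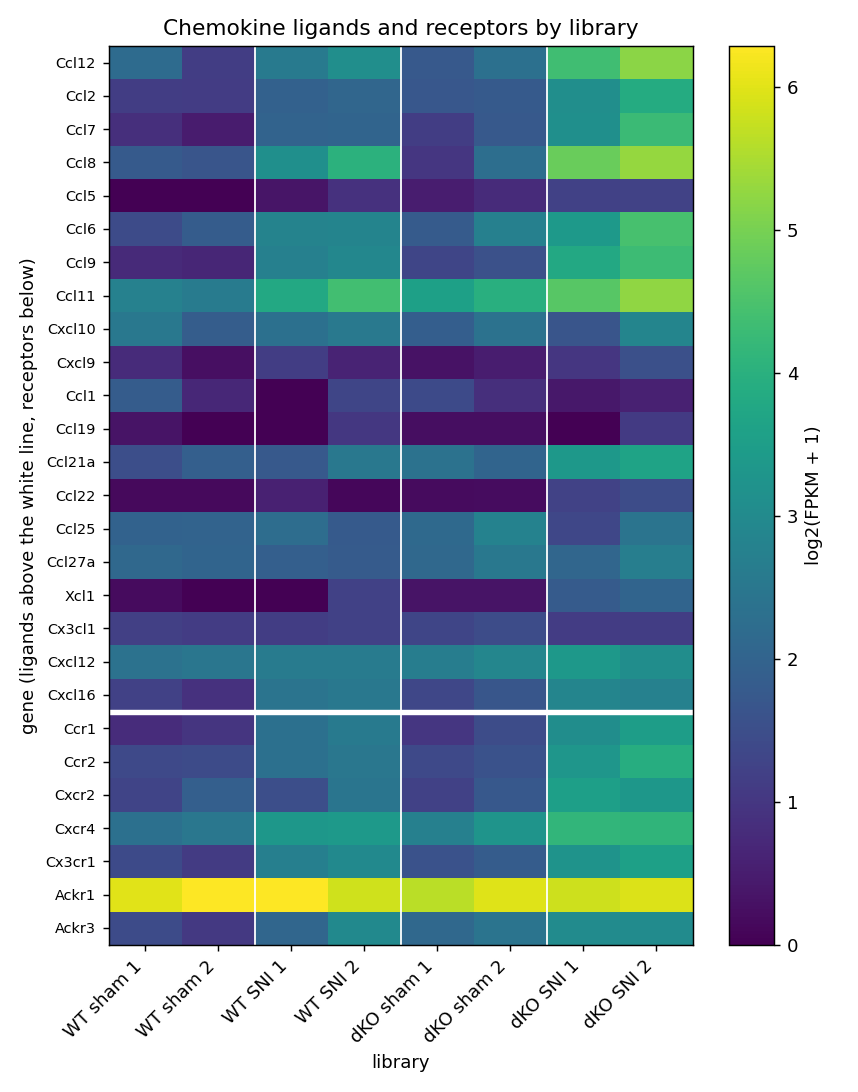
Colors give log2(FPKM + 1) of the tested members named in the text (rows, ligands above the thick white line and receptors below it) in the 8 libraries (columns), with thin lines between groups. The columns of dKO SNI are brightest for the monocyte-attracting ligands at the top, and the row of Ackr1 is bright in every column.

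Many members are neighbors in the genome, whether or not they rose. Over all tested genes the shares called higher were 13.6% in WT, 23.8% in dKO and 10.7% between the injured groups. In the mouse assembly GRCm38 the genes Ccl2, Ccl7, Ccl11, Ccl12, Ccl8 and Ccl1 lie in one cluster (chr11:82035571-82305690), and 5 of the 6, all but Ccl1, were called higher in each of the 3 comparisons. Ccl5, Ccl9, Ccl6, Ccl3 and Ccl4 form a second cluster (chr11:83525778-83664683), with 3 of 3 tested genes higher in both injury comparisons and 2 in dKO SNI against WT SNI. Ccr9, Cxcr6, Ccr1, Ccr3 and Ccr2 lie in a receptor cluster on chromosome 9, in which Ccr1 and Ccr2 rose in both injury comparisons. The cluster of neutrophil-attracting ligands (chr5:90759360-90905938), with Cxcl5, Cxcl3, Cxcl15, Cxcl1 and Cxcl2, held no tested gene. All 58 members are annotated there as protein-coding.

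Promoter sequences next to the starts of the members were searched for motifs, whether or not a member rose. RefSeq promoter windows (GRCm38.p6, 250 bases before to 50 after a start) were found for 44 of the 58 members, giving 51 windows. Ccl2, Ccl5, Ccl7, Ccl11 and Cxcl16, all called higher after axotomy in both genotypes, were among those without a window. Both strands were searched for the NF-kB consensus, for the interferon-response pair of TTTC with any 2 bases between, for the AP-1 letters TGANTCA and for the TATA box TATAAA. The NF-kB consensus stood in 23.5% of the 51 member windows and 8.46% of the 32851 promoters. For TGANTCA the shares were 17.6% and 7.81%, for the TTTC pair 5.88% and 3.44%, and for TATAAA 25.5% and 13.6%. These shares are over members that rose and members that did not. Of the 12 members with the NF-kB consensus, Ackr2, Ccl20, Ccr3, Ccr6, Cxcl1, Cxcl2 and Cxcl3 were not tested and could not be called. Of the tested ones Ccl9 and Ccr1 were called in some comparison, and Ccl1, Ccl27a and Cxcl10 in none. Shown in capitals are all matches in the 120 bases (for Cxcl10 220 bases) directly before the start of 3 ligands with large rises (Ccl8, Ccl12 and Ccl9), of raised receptors (Ccr1 and Cxcr4) and, for contrast, of Cxcl10, which was not called.
Ccl8 (chr11:82115065-82115184, plus strand): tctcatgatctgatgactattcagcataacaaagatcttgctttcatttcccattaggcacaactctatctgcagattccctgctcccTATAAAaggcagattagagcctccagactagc
Ccl12 (chr11:82101725-82101844, plus strand): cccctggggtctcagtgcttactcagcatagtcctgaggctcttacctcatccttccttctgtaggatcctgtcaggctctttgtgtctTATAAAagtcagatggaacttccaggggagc
Ccl9 (chr11:83578637-83578756, minus strand): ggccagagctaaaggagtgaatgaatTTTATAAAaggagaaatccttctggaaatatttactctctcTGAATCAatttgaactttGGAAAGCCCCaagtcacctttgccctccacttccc
Ccr1 (chr9:123968693-123968812, minus strand): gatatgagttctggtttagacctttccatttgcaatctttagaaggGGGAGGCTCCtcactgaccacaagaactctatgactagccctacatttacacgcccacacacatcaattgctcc
Cxcr4 (chr1:128592300-128592419, minus strand): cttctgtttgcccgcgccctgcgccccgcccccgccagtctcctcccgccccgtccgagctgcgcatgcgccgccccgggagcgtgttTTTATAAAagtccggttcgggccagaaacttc
Cxcl10 (chr5:92348890-92349109, minus strand): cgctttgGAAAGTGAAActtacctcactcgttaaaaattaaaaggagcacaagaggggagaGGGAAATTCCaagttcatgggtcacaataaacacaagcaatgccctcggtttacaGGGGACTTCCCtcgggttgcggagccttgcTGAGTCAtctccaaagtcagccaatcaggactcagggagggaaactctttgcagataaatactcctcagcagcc
Ccl8 and Ccl12 each had a TATAAA ending 27 and 26 bases before the start and no match to the other motifs. Ccl9 had TATAAA on both strands in overlap, one TGANTCA and one NF-kB consensus, Ccr1 an NF-kB consensus and Cxcr4 a TATAAA on both strands in overlap. Cxcl10 held 3 NF-kB matches, 2 of them in overlap, with one TTTC pair (printed as its reverse complement) and one TGANTCA in its longer stretch, and its level did not separate the groups in any comparison. A match describes letters and not binding.

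All 4 monocyte-attracting ligands of the module (Ccl2, Ccl7, Ccl8 and Ccl12) passed the filter and were called higher in each of the 3 comparisons. Their median changes were 1.26 in WT, 2.50 in dKO and 1.60 between the injured groups. Of the 4, Ccl2, Ccl7 and Ccl12 were taken as ligands of the monocyte receptor Ccr2. Ccl2, the main monocyte chemoattractant, measured 1.20 and 1.18 FPKM after sham surgery and 2.86 and 3.18 FPKM after axotomy in WT, against 2.28 and 2.41 FPKM and, after axotomy, 7.59 and 13.6 FPKM in dKO. Ccl7, a second Ccr2 ligand, measured 0.808 and 0.393 FPKM after sham surgery and 2.99 and 3.07 FPKM after axotomy in WT, against 1.21 and 2.37 FPKM and, after axotomy, 7.69 and 18.7 FPKM in dKO. In both genes the groups did not overlap in the injury comparisons or between dKO SNI and WT SNI. Ccl2 rose by 0.88 ± 0.21 in WT (adjusted p = 0.0186, limma) and by 1.74 ± 0.21 in dKO (adjusted p = 0.000293), and was 1.48 ± 0.21 higher in dKO SNI than in WT SNI (adjusted p = 0.00929). For Ccl7 the changes were 1.34 ± 0.34, 2.26 ± 0.34 and 1.70 ± 0.34 (adjusted p = 0.0210, 0.000761 and 0.0124). The Ccl2 call in WT was lost without WT sham 1, WT sham 2 or WT SNI 2, and that of Ccl7 without WT sham 2 or either WT SNI library.

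Ccl8 measured 2.45 and 2.18 FPKM after sham surgery and 7.69 and 15.4 FPKM after axotomy in WT, against 0.988 and 3.82 FPKM and, after axotomy, 27.9 and 38.1 FPKM in dKO. Ccl12, a mouse Ccr2 ligand, measured 3.63 and 1.20 FPKM after sham surgery and 5.04 and 7.63 FPKM after axotomy in WT, against 2.38 and 4.00 FPKM and, after axotomy, 19.5 and 35.4 FPKM in dKO. The 2 dKO SNI libraries were the highest of all 8 for both genes, and the sham groups of the genotypes overlapped. The rise of Ccl8 was 1.85 ± 0.39 in WT and 3.44 ± 0.39 in dKO (adjusted p = 0.0103, lost without WT sham 2 or WT SNI 2, and 0.000213), the latter ranked 11 among the 12884 genes by size. Ccl12 rose by 1.18 ± 0.38 in WT, a call near the threshold (adjusted p = 0.0498) that 5 of the 8 fits without a library lost, and by 2.73 ± 0.38 in dKO (adjusted p = 0.000501). Between dKO SNI and WT SNI the changes were 1.50 ± 0.39 for Ccl8 and 1.92 ± 0.38 for Ccl12 (adjusted p = 0.0264 and 0.0122). Together Ccl2, Ccl7, Ccl8 and Ccl12 held, of the ligand sum, 19.9 and 14.6% after sham surgery and 26.5 and 30.8% after axotomy in WT, against 14.4 and 18.7% and then 41.3 and 44.5% in dKO.

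**Figure D5:**
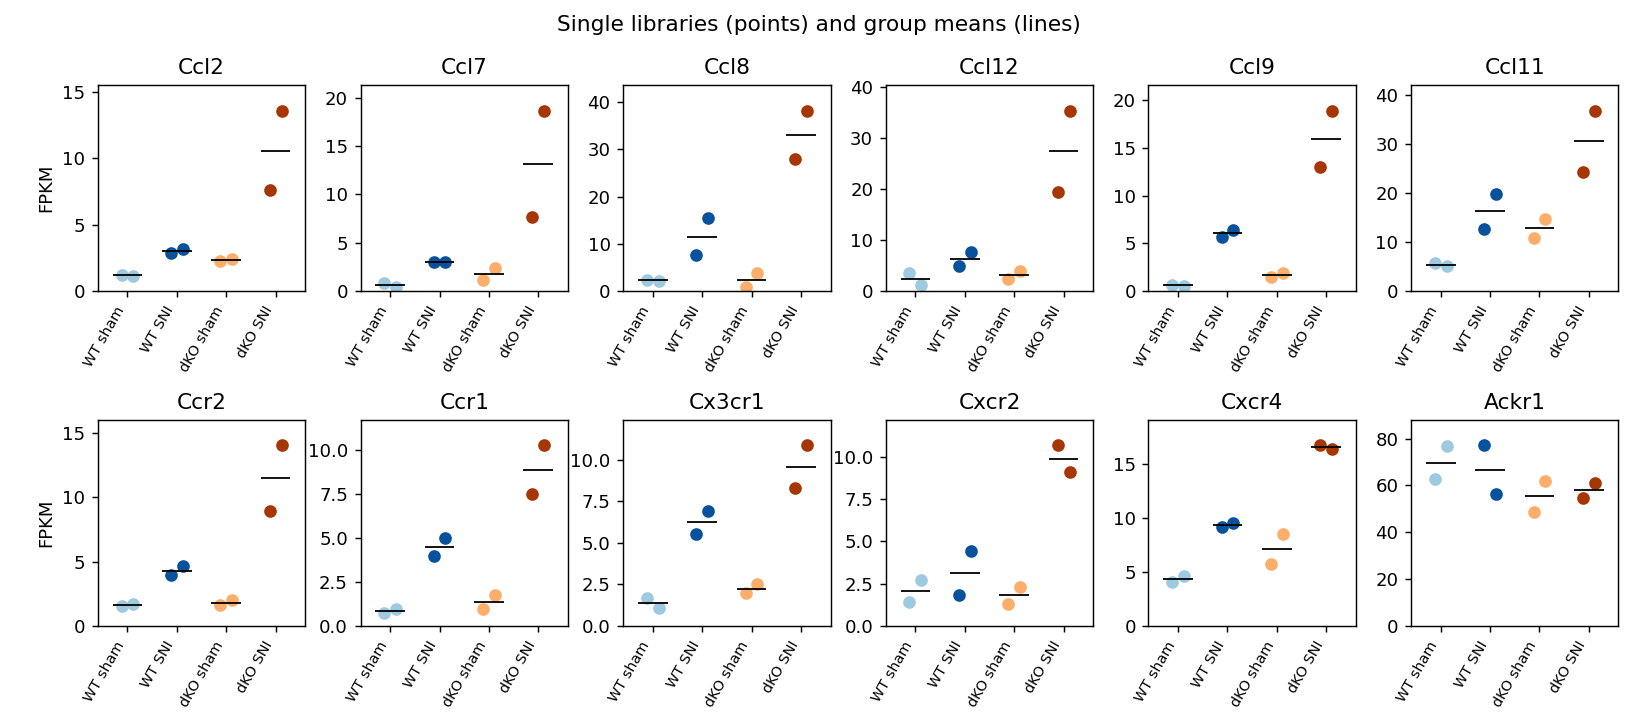
Points give the FPKM of single libraries and black lines the group means (n = 2) for 6 ligands and 6 receptors, on linear axes that start at 0. In 11 of the 12 genes both dKO SNI points lie above all other points, whereas Ackr1 stays between 48.5 and 77.1 FPKM.

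The macrophage inflammatory ligands, among them ligands of Ccr1, formed the second group. Ccl9 measured 0.691 and 0.604 FPKM after sham surgery and 5.72 and 6.46 FPKM after axotomy in WT, against 1.50 and 1.95 FPKM and, after axotomy, 13.0 and 18.9 FPKM in dKO. Ccl6 measured 1.73 and 2.57 FPKM after sham surgery and 5.97 and 6.19 FPKM after axotomy in WT, against 2.50 and 5.66 FPKM and, after axotomy, 9.35 and 21.0 FPKM in dKO. Ccl9 separated the groups in every comparison, whereas for Ccl6 the sham groups overlapped. Ccl9 rose by 2.10 ± 0.18 in WT and 2.62 ± 0.18 in dKO (adjusted p = 0.000106 and 3.87e-05), the smallest adjusted p of any member in both. It was 1.24 ± 0.18 higher in dKO SNI than in WT SNI (adjusted p = 0.00929). Ccl6 rose by 1.18 ± 0.36 and 1.64 ± 0.36 (adjusted p = 0.0426 and 0.00509), the WT call being lost without any one of the 4 WT libraries, and differed by 1.09 ± 0.36 between the injured groups (adjusted p = 0.0537, not called). Ccl5, at 0 in WT after sham surgery, measured 0.283 and 0.856 FPKM in WT after axotomy, and in dKO 0.428 and 0.713 FPKM after sham surgery and 1.32 and 1.35 FPKM after axotomy. Its calls rested on values near 1 FPKM (adjusted p = 0.0441, 0.0328 and 0.0498) and were lost in 5, 3 and 7 of the 8 fits without a library.

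Ccl11, or eotaxin, a ligand of Ccr3, measured 5.77 and 5.11 FPKM after sham surgery and 12.8 and 19.8 FPKM after axotomy in WT, against 10.9 and 14.7 FPKM and, after axotomy, 24.3 and 36.8 FPKM in dKO. It did not overlap between any of the compared groups, and dKO sham lay above WT sham. The rise was 1.40 ± 0.24 in WT and 1.18 ± 0.24 in dKO (adjusted p = 0.00417 and 0.00372), and dKO SNI exceeded WT SNI by 0.87 ± 0.24 (adjusted p = 0.0318). Its receptor Ccr3 stayed under 1 FPKM throughout. Of the interferon-induced ligands of Cxcr3, Cxcl10, whose promoter stretch is printed above, measured 2.18 to 6.22 FPKM with overlapping groups in all comparisons, and its changes of 0.24 ± 0.35 in WT and 0.13 ± 0.35 in dKO were not called. Cxcl9 measured 0.724 and 0.197 FPKM after sham surgery and 1.21 and 0.544 FPKM after axotomy in WT, against 0.232 and 0.418 FPKM and, after axotomy, 0.987 and 1.92 FPKM in dKO. It rose in dKO by 0.86 ± 0.25 (adjusted p = 0.0198), a call lost without dKO sham 1 or dKO SNI 2, and its groups overlapped in WT.

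Of the 13 ligands of lymphocyte and dendritic cell receptors 7 were tested. In dKO 3 of them rose, where 23.8% of all tested genes were called higher, and in WT 0, where 13.6% were. Ccl22 passed the filter through the 2 dKO SNI libraries alone, and Xcl1 through these and WT SNI 2. Ccl21a, a ligand of Ccr7, measured 1.83 and 2.74 FPKM after sham surgery and 2.38 and 4.71 FPKM after axotomy in WT, against 4.19 and 3.08 FPKM and, after axotomy, 9.26 and 11.6 FPKM in dKO. Ccl22, a ligand of Ccr4, measured 0.123 and 0.122 FPKM after sham surgery and 0.494 and 0.0767 FPKM after axotomy in WT, against 0.127 and 0.147 FPKM and, after axotomy, 1.35 and 1.73 FPKM in dKO. Xcl1, which acts on the dendritic cell receptor Xcr1, measured 0.132 and 0 FPKM after sham surgery and 0 and 1.31 FPKM after axotomy in WT, against 0.264 and 0.250 FPKM and, after axotomy, 2.49 and 3.07 FPKM in dKO. All 3 overlapped between WT SNI and WT sham and were not called there (adjusted p = 0.237, 0.510 and 0.262). In dKO they rose by 1.30 ± 0.25, 1.16 ± 0.18 and 1.58 ± 0.32 (adjusted p = 0.00273, 0.000980 and 0.00317), and they were 1.37 ± 0.25, 1.00 ± 0.18 and 1.31 ± 0.32 higher in dKO SNI than in WT SNI (adjusted p = 0.0113, 0.0112 and 0.0204). Markers of lymphatic endothelium, a source of Ccl21a (Prox1, Lyve1, Pdpn and Flt4), summed in WT to 9.21 to 10.6 FPKM after sham surgery and 17.9 to 18.9 FPKM after axotomy, and in dKO to 15.3 to 15.4 FPKM and then 16.8 to 21.6 FPKM. Of these 4 markers 2 were tested, Lyve1 and Pdpn, and 0 were called between the injured groups (0 also at an unadjusted p under 0.05). Prox1 and Flt4 stayed under 1 FPKM, were not tested and hardly entered the sums. Both were higher in each injured dKO library than in each injured WT library. Prox1 went from 0.0152 and 0.00532 FPKM to 0.0747 and 0.133 FPKM, Flt4 from 0.161 and 0.260 FPKM to 0.361 and 0.585 FPKM. The part of lymphatic endothelium in the Ccl21a change was not tested. Ccl1 (ligand of Ccr8), Ccl19 (of Ccr7), Ccl25 (of Ccr9) and Ccl27a (of Ccr10) were called in no comparison. Their means over the 8 libraries were 0.991, 0.343, 3.41 and 3.54 FPKM. Exons of Ccl25 and Ccl27a overlap those of Elavl1 and Il11ra1 on the other strand, by 204 and 8 bases, and without strand such reads cannot be told apart. The same holds for Cxcl16 with Zmynd15 (552 bases), Cxcl10 with Art3 (133 bases), Xcl1 with Gm20743 (98 bases) and Cx3cr1 with Gm33858 (78 bases), of which Zmynd15 measured at most 0.522 FPKM and Art3 14.4 to 25.8 FPKM.

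Of the ligands made in resting tissue or held on membranes, 3 of 5 were tested. Cxcl12, the ligand of Cxcr4 and Ackr3, measured 4.13 and 4.52 FPKM after sham surgery and 5.09 and 5.09 FPKM after axotomy in WT, against 5.31 and 6.41 FPKM and, after axotomy, 9.26 and 7.48 FPKM in dKO. Cxcl16, a membrane-bound ligand of Cxcr6, measured 1.32 and 0.850 FPKM after sham surgery and 4.38 and 4.74 FPKM after axotomy in WT, against 1.53 and 2.23 FPKM and, after axotomy, 6.31 and 5.82 FPKM in dKO. Cx3cl1, the membrane-bound ligand of Cx3cr1, measured 1.26 and 1.17 FPKM after sham surgery and 1.22 and 1.31 FPKM after axotomy in WT, against 1.48 and 1.74 FPKM and, after axotomy, 1.18 and 1.22 FPKM in dKO. No SNI library of Cxcl16 or Cxcl12 lay under a sham library of its genotype, whereas Cx3cl1 stayed in a narrow range and was lower in both dKO SNI libraries than in dKO sham. Cxcl16 rose by 1.42 ± 0.17 in WT and 1.30 ± 0.17 in dKO (adjusted p = 0.000660 and 0.000339). Its change of 0.35 ± 0.17 between dKO SNI and WT SNI was not called, although both dKO SNI libraries were higher. Cxcl12 rose in dKO by 0.45 ± 0.14 (adjusted p = 0.0272, lost without dKO sham 1 or dKO SNI 1) and was 0.61 ± 0.14 higher in dKO SNI than in WT SNI (adjusted p = 0.0183, lost without dKO SNI 1 as well as the libraries named for all members). In WT the change of Cxcl12 was 0.20 ± 0.14 and not called. Cx3cl1 changed by 0.03 ± 0.13 in WT and -0.25 ± 0.13 in dKO, neither called.

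Among CC receptors, those of monocytes and macrophages were detected. Ccr2, which brings monocytes out of the blood, measured 1.60 and 1.69 FPKM after sham surgery and 3.97 and 4.64 FPKM after axotomy in WT, against 1.60 and 2.00 FPKM and, after axotomy, 8.95 and 14.0 FPKM in dKO. Ccr1 measured 0.752 and 0.961 FPKM after sham surgery and 4.00 and 5.00 FPKM after axotomy in WT, against 0.993 and 1.77 FPKM and, after axotomy, 7.53 and 10.3 FPKM in dKO. In both genes each SNI library was above each sham library of its genotype, and each dKO SNI library above each WT SNI library. Ccr2 rose by 1.00 ± 0.19 in WT and 2.13 ± 0.19 in dKO (adjusted p = 0.00645 and 8.52e-05) and Ccr1 by 1.56 ± 0.20 and 2.06 ± 0.20 (adjusted p = 0.000989 and 0.000115). Ccr2 and Ccr1 were 1.21 ± 0.19 and 0.84 ± 0.20 higher in dKO SNI than in WT SNI (adjusted p = 0.00934 and 0.0197). The WT call of Ccr2 was lost without WT SNI 2.

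Cx3cr1, the fractalkine receptor of tissue macrophages, measured 1.68 and 1.12 FPKM after sham surgery and 5.55 and 6.94 FPKM after axotomy in WT, against 1.98 and 2.54 FPKM and, after axotomy, 8.30 and 10.9 FPKM in dKO. No groups overlapped in the injury comparisons. Cx3cr1 rose by 1.60 ± 0.18 in WT and 1.69 ± 0.18 in dKO (adjusted p = 0.000615 and 0.000173) and the injured groups, although they did not overlap, differed by 0.54 ± 0.18 (adjusted p = 0.0572, not called). The macrophage markers rose with these receptors after axotomy, but only some of them also differed between the injured groups. Summed over 10 markers (Cd68, Adgre1, Aif1, Csf1r, Itgam, Mrc1, Cd163, Lyz2, C1qa and Fcgr1) WT libraries measured 139 to 147 FPKM after sham surgery and 497 to 689 FPKM after axotomy, and dKO libraries 163 to 253 FPKM and then 1179.9 to 1279 FPKM, with 10 of 10 called higher in both injury comparisons, 6 of 10 in dKO SNI against WT SNI and none at 0 throughout. The 5 monocyte markers, Ly6c2 and Chil3 among them, summed to 24.3 to 29.6, 63.1 to 97.8, 34.0 to 51.2 and 255 to 315 FPKM in the same order of groups, with 3, 5 and 5 of 5 called higher and none at 0 throughout. Fibroblast markers (Col1a1, Col3a1, Dcn, Lum and Pdgfra) summed to 164 to 247, 464 to 742, 363 to 440 and 941 to 1220 FPKM, with 5, 4 and 1 of 5 called higher. Lyz2 alone supplied 299 and 489 FPKM of the macrophage sums for WT SNI, and 960 and 803 FPKM of those for dKO SNI. Between the injured groups 9 of the 10 macrophage changes were positive. Cd163 overlapped there, with WT libraries at 7.24 and 7.69 FPKM and dKO libraries at 7.61 and 5.88 FPKM. For Mrc1 the WT libraries held 19.0 and 22.0 FPKM, the dKO libraries 27.7 and 22.2 FPKM. What part any of these markers had in the result was not tested.

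Of the CXC receptors 2 were tested. Cxcr2, the neutrophil receptor, measured 1.43 and 2.74 FPKM after sham surgery and 1.86 and 4.42 FPKM after axotomy in WT, against 1.32 and 2.31 FPKM and, after axotomy, 10.7 and 9.08 FPKM in dKO. Cxcr4, the Cxcl12 receptor of many leukocytes and progenitors, measured 4.04 and 4.65 FPKM after sham surgery and 9.11 and 9.55 FPKM after axotomy in WT, against 5.72 and 8.47 FPKM and, after axotomy, 16.7 and 16.3 FPKM in dKO. WT SNI and WT sham overlapped for Cxcr2, whose change of 0.38 ± 0.31 was not called (adjusted p = 0.392), whereas both dKO SNI libraries exceeded all others. Cxcr2 rose by 1.97 ± 0.31 in dKO (adjusted p = 0.000974) and was 1.46 ± 0.31 higher in dKO SNI than in WT SNI (adjusted p = 0.0145). Cxcr4 rose by 0.95 ± 0.17 and 1.13 ± 0.17 (adjusted p = 0.00416 and 0.000672) and differed by 0.76 ± 0.17 between the injured groups (adjusted p = 0.0151).

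Markers of neutrophils and their precursors were, like Cxcr2, highest in dKO SNI, while the 5 neutrophil-attracting ligands of the module did not reach 1 FPKM. Summed over 8 markers (S100a8, S100a9, Ly6g, Retnlg, Camp, Ltf, Mpo and Elane) WT libraries measured 609 to 829 FPKM after sham surgery and 1074 to 2107 FPKM after axotomy, and dKO libraries 578 to 1031 FPKM and then 6181 to 6260 FPKM. Called higher were 5 of 8 in WT SNI, 8 of 8 in dKO SNI against dKO sham and 8 of 8 in dKO SNI against WT SNI. None was at 0 throughout. The 5 called in WT SNI, where Cxcr2 was not called, were Ly6g, Camp, Ltf, Mpo and Elane, and S100a8, S100a9 and Retnlg were not called there. Those 5 ligands summed in WT to 0.197 and 1.10 FPKM after sham surgery and 0.222 and 0.204 FPKM after axotomy, and in dKO to 0.440 and 0.207 FPKM and then 0.804 and 0.785 FPKM. Ppbp, a platelet-derived Cxcr2 ligand whose symbol lies outside the rule, measured 0.399 and 1.56 FPKM after sham surgery and 1.35 and 2.77 FPKM after axotomy in WT, against 1.45 and 3.55 FPKM and, after axotomy, 13.9 and 2.73 FPKM in dKO. It was highest in dKO SNI 1, and its changes of 0.65 ± 0.58 in WT and 1.16 ± 0.58 in dKO were not called. The part of these markers in the change of Cxcr2 was not tested.

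Of the 4 atypical receptors Ackr1 and Ackr3 were tested, and Ackr3 was called after injury. Ackr1, which binds many inflammatory chemokines on red cells and venular endothelium, measured 62.7 and 76.7 FPKM after sham surgery and 77.1 and 56.2 FPKM after axotomy in WT, against 48.5 and 62.1 FPKM and, after axotomy, 54.7 and 61.2 FPKM in dKO. Both dKO sham libraries lay below both WT sham libraries and the other compared groups overlapped. Ackr1 was called in no comparison, with changes of -0.07 ± 0.19 in WT, 0.07 ± 0.19 in dKO and -0.18 ± 0.19 between the injured groups. Of its 1405 exon bases 361 are shared with Cadm3 on the same strand, a gene at 48.2 to 118 FPKM in these libraries, so the Ackr1 level is uncertain. Markers of red cells such as Hba-a1 and Alas2 summed to 1114 to 6641 FPKM and those of endothelium (Pecam1, Cdh5, Kdr, Tek and Cldn5) to 21.0 to 36.9 FPKM over the 8 libraries. Ackr3, which takes up Cxcl12, measured 1.72 and 1.07 FPKM after sham surgery and 3.20 and 6.88 FPKM after axotomy in WT, against 3.38 and 4.35 FPKM and, after axotomy, 7.21 and 7.23 FPKM in dKO. Its groups did not overlap in any comparison. Ackr3 rose by 1.28 ± 0.27 in WT (adjusted p = 0.00923, lost without WT sham 2) and by 0.77 ± 0.27 in dKO (adjusted p = 0.0382, lost without any one of the 4 dKO libraries).

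Ligands and receptors of the same axis could be set side by side. For Ccr2 both sides rose in each genotype, with its ligands Ccl2, Ccl7 and Ccl12 called in both. Ccl8 was not set beside a receptor. For Cx3cr1 the receptor rose in both genotypes while Cx3cl1, at 1.17 to 1.74 FPKM, was not called. For Cxcr4 the receptor rose in both and Cxcl12 in dKO. Ligands without a receptor at 1 FPKM were Ccl11 (Ccr3), Cxcl9 and Cxcl10 (Cxcr3), Cxcl16 (Cxcr6), Ccl19 and Ccl21a (Ccr7), Ccl22 (Ccr4), Ccl25 (Ccr9), Ccl27a (Ccr10) and Ccl1 (Ccr8). Xcr1, the receptor of Xcl1, measured at most 0.277 FPKM.

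The sham comparison asked whether the genotypes differed without axotomy. With limma 0 members were called, where 0.155% of tested genes were called. At an unadjusted p under 0.05 there were 10 of 28, against 1397 of the 12884 tested genes. Both dKO sham libraries lay above both WT sham libraries for 16 members, as for 27.8% of tested genes. The lowest adjusted p was 0.136, for Ccl11 (1.09 ± 0.24), followed by Ccl9 (0.72 ± 0.18, adjusted p = 0.178) and Ackr3 (1.03 ± 0.27, adjusted p = 0.204). With a pseudocount of 0.1 Ccl9 was called, at an adjusted p of 0.0494. Several marker lists moved in the same direction. Fibroblast markers, 2 of 5 called higher in dKO sham, had a median change of 1.07. For red cell, monocyte and macrophage markers the medians were 1.32, 0.60 and 0.36, with 0 called in each list. Among lists that went the other way were sensory neuron and skeletal muscle markers, at medians of -0.16 and -3.35. The part of any of these lists in the sham values was not tested.

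Whether the injury response itself differed between genotypes was tested as the interaction. No member passed it: 0 of 28 were called with limma, where 0.0543% of tested genes were called, and 8 of 28 had an unadjusted p under 0.05, against 1863 of the 12884 tested genes. The dKO rise exceeded the WT rise by 1.13 ± 0.27 for Ccr2, with the lowest adjusted p of the module (0.218), by 0.98 ± 0.26 for Ccl22 (0.236) and by 1.58 ± 0.44 for Cxcr2 (0.239). The other members under an unadjusted 0.05 were Ccl2, Ccl8, Ccl12, Ccl21a and Xcl1, all with a larger rise in dKO. A larger number of calls in dKO than in WT is therefore not shown to be a different response.

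The rest of the chemokine system was read from a list of 55 genes (relatives such as Pf4, G proteins, effectors, desensitizing proteins, and proteins that cut or present chemokines), of which 48 were tested. Of these 48, 17 were higher and 4 lower in WT SNI, where 23.0% of all tested genes were called, 13.6% higher and 9.38% lower. In dKO SNI against dKO sham 24 were higher and 11 lower, where 48.4% of all tested genes were called, 23.8% higher and 24.6% lower. In dKO SNI against WT SNI 11 were higher and 8 lower, where 24.1% were called, 10.7% higher and 13.4% lower. With limma 0 were called between the shams or in the interaction (9 and 10 at an unadjusted p under 0.05). Their median changes were 0.40 in WT, 0.44 in dKO and 0.14 between the injured groups, against 0.07, -0.00 and -0.03 for all tested genes. The smallest p belonged to Sdc1, a heparan sulfate proteoglycan that can hold chemokines at the cell surface, in WT (2.54 ± 0.15, adjusted p = 1.67e-05). In dKO it belonged to Ctsg, a neutrophil protease that can trim chemokines (2.89 ± 0.23, adjusted p = 5.56e-05), and in dKO SNI against WT SNI to Vav1, a blood-cell exchange factor for Rac (1.14 ± 0.15, adjusted p = 0.00929).

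Calls in that list went both ways, as they did over all tested genes. Rac2, the Rac of blood cells, measured 3.32 and 5.12 FPKM after sham surgery and 9.43 and 15.1 FPKM after axotomy in WT, against 3.93 and 7.25 FPKM and, after axotomy, 37.2 and 31.9 FPKM in dKO. Rac2, Dock2, Vav1 and Was were higher in all 3 of these comparisons. Gnaq, a G protein subunit abundant in neurons, measured 75.8 and 76.5 FPKM after sham surgery and 41.6 and 40.2 FPKM after axotomy in WT, against 63.7 and 56.0 FPKM and, after axotomy, 26.1 and 21.4 FPKM in dKO. Gnaq, Gnai1 and Plcb3 were lower in all 3. Of the 8 sensory neuron markers, Avil, Prph and Nefl among them, 4, 8 and 6 were called lower in the same comparisons, at sums in WT of 3821 to 4436 FPKM after sham surgery and 2206 to 2973 FPKM after axotomy, and in dKO of 3379 to 3875 FPKM and then 1012 to 1484 FPKM. The part of neuronal RNA in these falls was not tested.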

How the data were processed

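RNA from lumbar ganglia was sequenced as paired ends from TruSeq libraries, per the labels' protocols. The authors deposited one table of FPKM values per gene and library, made, per the submitters' processing notes, with StringTie 1.3.0, HISAT2 2.0.4 and edgeR among the tools and GRCm38.p4 and mm10 among the builds. Annotation and strand setting: not given in the sources used here. Read totals are unknown, and low values did not fall on whole-read steps, so no count model was used.

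Groups followed the labels. Differences were tested with limma 3.58.1 (R 4.3.3) on log2(FPKM + 1) over genes that reached 1 FPKM in 2 or more of the 8 libraries, with one mean per group, all 8 libraries in the fit, trended moderation, two-sided p and Benjamini-Hochberg adjustment over all 12884 tested genes at a threshold of 0.05. The procedure was tested on simulated data. One member counted in the totals and some markers are not reported here by name. Every other member is named: with each library's value when called in any comparison or highest in mean among ligands or receptors, by range or mean when tested but not called, and by highest value when below 1 FPKM throughout. Of the pathway list the called gene with the smallest p in each comparison is named, and others beside a result. Members, marker lists and pathway list were chosen with earlier results of these data known. The injury comparisons of the 2 genotypes share no library, whereas each genotype comparison shares libraries with them. Gene positions came from GENCODE M21 (GRCm38) and promoters from RefSeq (GRCm38.p6). Alternatives were another pseudocount, no filter, median-centring, quantile normalization, robust moderation, a fold threshold, fits of the groups compared alone, a replicate block and leaving out each library.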

Additional observations from a re-analysis of the deposited data

How the results depend on the processing

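No result reversed under any alternative. Members called in WT SNI against WT sham fell from 15 to 9 without the filter (12 after median-centring and 10 after quantile normalization), members called in dKO SNI against WT SNI from 15 to 9 when a change of at least 1 was also required, and 1 member in place of 0 was called between the shams with a pseudocount of 0.1. Leaving out one library at a time gave 7 to 14 members in WT SNI against WT sham, 17 to 21 in dKO SNI against dKO sham, 0 to 17 in dKO SNI against WT SNI, and 0 between the shams and in the interaction. A left-out library leaves its group with 1 sample, which is then assumed to vary like the other groups. Fitting the groups compared alone gives no interaction. Some single calls in dKO SNI against WT SNI were also lost under other settings. With a pseudocount of 0.1 these were Ccl5, Ccl8 and Xcl1, and without the filter Ccl5, Ccl8, Ccl11, Ccr1 and Xcl1. Robust moderation lost Ccl8, and the fit of the groups compared alone lost Ccl5.

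Over all tested genes, calls moved by more than 1.5 times in these cases and with the replicate block. Requiring a change of at least 1 left 725 of 2967 in WT, 1867 of 6236 in dKO and 548 of 3106 in dKO SNI against WT SNI, and without the filter the last was 1892. Between the shams the count of 20 became 6 without the filter, 55 with a pseudocount of 0.1 and 32 with the groups compared alone. Without WT sham 1, WT sham 2 or WT SNI 2 the WT count was 1389, 1101 and 1133. Without dKO SNI 2 the dKO count was 3887, and without WT SNI 1 or dKO SNI 2 the count between the injured groups was 10 and 11. The sham count was 31 without WT sham 1 and 11 without dKO sham 2, and the interaction count of 7 became 20, 11 and 15 without WT sham 1, WT SNI 2 and dKO SNI 1. With 2 libraries per group and no read totals, differences among members near 1 FPKM are limited by the spread of a single pair.

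Groups share replicate numbers, and a fit with the number as a replicate block called 15 members in WT, 21 in dKO, 16 in dKO SNI against WT SNI, and 0 between the shams and in the interaction. It moved the calls over all genes to 47 between the shams and 12 in place of 7 in the interaction. Deviations of same-numbered libraries correlated at -0.188 to 0.254 across genes. These values cannot show whether such libraries share anything beyond the number.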

Other observations

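Without the filter on low values, 23 members above 0 but below 1 FPKM in every library entered the fit. Of these, 3 were called in dKO SNI against dKO sham by limma with Benjamini-Hochberg adjustment over 17956 genes. In that fit 6258 of the 17956 genes were called, 3180 higher and 3078 lower. Cxcr6, the receptor of Cxcl16, was higher by 0.43 ± 0.10 on the log2(FPKM + 1) scale (adjusted p = 0.0183) and Cxcl14 by 0.40 ± 0.12 (adjusted p = 0.0356). Ccr10, a receptor of Ccl27a and Ccl28, was the only member lower in any fit run here, with a change of -0.31 ± 0.08 (adjusted p = 0.0307). These 3 were chosen after their values were seen.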
